A study of Mus musculus with 22 samples.

Results

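Axon guidance ligands and receptors were examined in the striatum of Fmr1 mutant mice and wild-type mice, in ribosome-bound mRNA of neurons that express the dopamine receptor Drd1 (D1 neurons) and in the whole striatal lysate. The genes were taken by symbol: plexins, neuropilins, Robo receptors, the netrin receptors Dcc and Unc5a to Unc5d, Eph receptors, semaphorins, Slits, netrin 1 (Ntn1) and ephrins. This gave 69 of the 55341 genes counted, of which 32 encode ligands, 34 encode receptors, and 3 are antisense RNAs of the plexin gene Plxna4 (Plxna4os1, Plxna4os2 and Plxna4os3). The mutant group (labelled KO) held 5 animals, numbers 2, 3, 9, 10 and 11, and the wild-type group (WT) held 6, numbers 1, 4, 12, 13, 14 and 20. All animals, wild types included, carried an EGFP-tagged ribosomal protein Rpl10a expressed in Drd1-positive medium spiny neurons, so no group was free of the tag. Each animal gave 1 library from ribosomes pulled down through EGFP (IP) and 1 from the cleared lysate before pulldown (input), 22 libraries in all. The labels give no age, strain or litter.

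Guidance ligands are secreted or displayed on cell surfaces, and receptors on growing axons read them as attraction or repulsion. Secreted class 3 semaphorins mostly act through a neuropilin that holds the ligand and a plexin that carries the signal, while transmembrane semaphorins bind plexins directly. Slits signal through Robo receptors, netrin through Dcc and the Unc5 receptors, and ephrins through Eph receptors, with signalling also running back into the ephrin-bearing cell. Many of these genes stay active in the adult brain, where they take part in spine and synapse remodelling, and in glia and blood vessels.

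Total counts ran over an 8.79-fold range among IP libraries (9375611 to 82376192) and a 1.72-fold range among input libraries (25164548 to 43276230). Fmr1 lay between 8.16 and 11.4 CPM (counts scaled to library size, on 1 scale across all 22 libraries) in KO IP and between 70.2 and 107.9 CPM in WT IP; its residual reads in KO libraries were not traced to exons. IP over input, Drd1 had a log2 fold change of 1.61 ± 0.12 (SE) in KO and 1.37 ± 0.11 in WT, and Drd2, the receptor of the other class of striatal projection neuron, −3.54 ± 0.16 in KO and −3.65 ± 0.15 in WT. Markers of cortical excitatory neurons set animals 1, 3, 9 and 12 apart, with a summed 99.5 to 462 CPM in input and 87.7 to 268 CPM in IP. The other 7 animals had at most 23.0 CPM in input and 12.8 CPM in IP.

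Compared per kilobase of exon, Epha4, an Eph receptor that binds ephrins of both the A and B type, had the highest level of all members in WT IP and in WT input. Its mean was 34.0 ± 1.28 CPM per kb in KO IP (SD, n = 5) and 39.0 ± 4.65 in WT IP (SD, n = 6), against 22.1 ± 1.76 in KO input and 26.0 ± 1.36 in WT input. The next level in WT IP was that of Efnb2, a transmembrane ephrin, at 15.1 ± 1.31 CPM per kb, and its spread did not reach that of Epha4. Sema7a, a lipid-anchored semaphorin that binds Plxnc1, followed at 11.1 ± 1.87, Efnb3 at 10.6 ± 1.36 and Plxna2 at 10.3 ± 1.91 CPM per kb, and these neighbours lay within each other's spread. Robo2, Epha6, Slit3, Dcc, Plxnd1 and Epha7 came next, between 8.59 and 9.43 CPM per kb on average in WT IP, also within each other's spread. In WT input the order below Epha4 was Efnb3 at 14.8 ± 1.70, Efnb2 at 10.2 ± 1.34 and Sema7a at 10.1 ± 1.83 CPM per kb.

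The classic partners were unequal in level. Among the Slits, Slit3 had 9.22 CPM per kb on average in WT IP, against 0.489 for Slit2 and 0.296 for Slit1. Before scaling by length, their WT IP means were 55.96, 12.43 and 1.755 CPM in the same order. The length used, over all annotated exons, was 6067 bases for Slit3, 25433 for Slit2 and 5921 for Slit1. The gap between Slit3 and Slit2 was therefore smaller in CPM. Netrin 1 (Ntn1) stood at 0.350 ± 0.134 CPM per kb in WT IP, while its receptor Dcc stood at 8.87. The neuropilins Nrp1 and Nrp2, coreceptors of class 3 semaphorins, ranked 47 and 45 of the 69 members, at 0.266 ± 0.0712 and 0.322 ± 0.0829 CPM per kb in WT IP, and Plxna2 was far above both. In 7 members (Efna4, Epha1, Epha2, Plxna4os2, Plxna4os3, Robo4 and Sema3g) no library of the 22 exceeded 24 reads, and these were not tested.

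**Figure D1:**
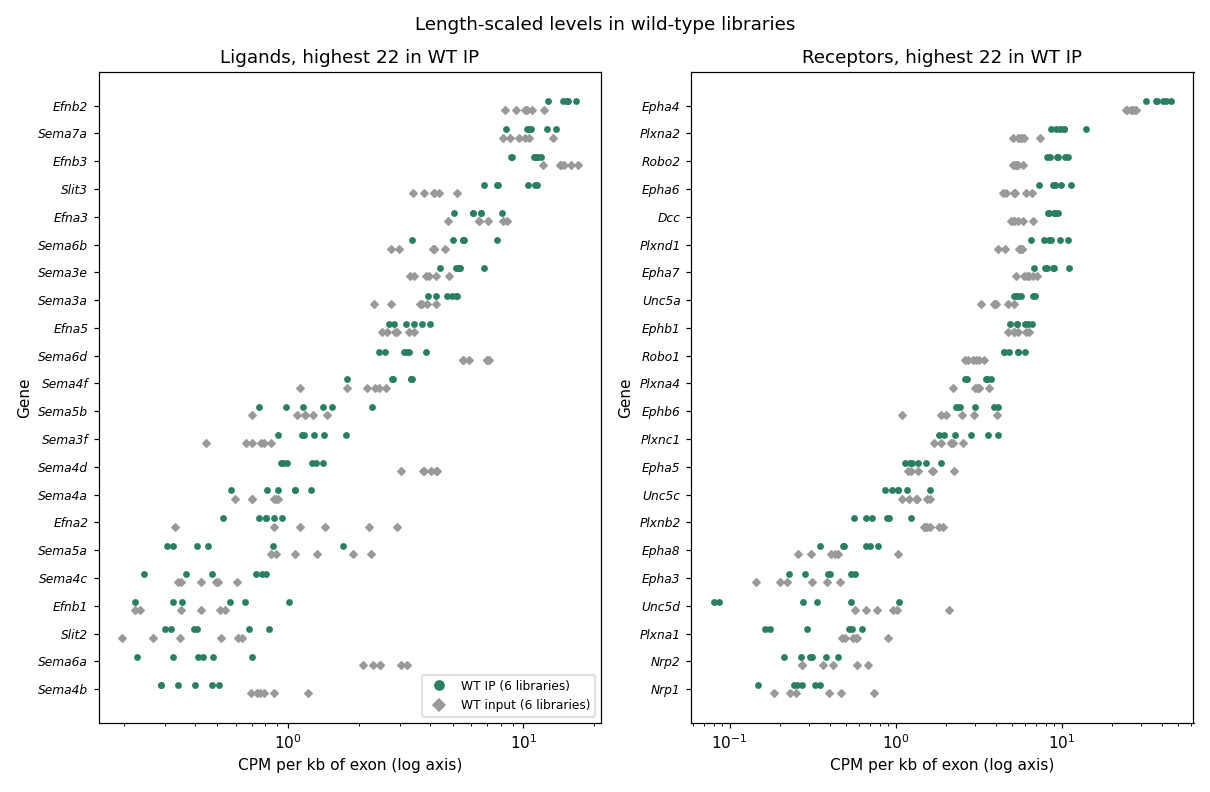
Levels of the 22 ligands and 22 receptors highest in WT IP, as CPM per kb of exon on a log axis, with a circle per WT IP library and a diamond per WT input library (6 each). Epha4 stands apart at the top, with a mean of 39.0 CPM per kb in IP, and Nrp1 and Nrp2 stand at the bottom of the receptors shown.

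The pulldown was then compared with its input to ask which guidance mRNAs were carried by ribosomes of D1 neurons. Of the 62 members tested in the fit over all libraries (edgeR quasi-likelihood test, Benjamini-Hochberg adjusted p under 0.05), 13 were higher and 16 lower in IP in KO, which is 46.8% against 47.3% of all 17311 genes tested. In WT, 16 were higher and 15 lower, 50% of members against 49.6% of all genes. By direction, 20.9% of all genes were higher and 26.4% lower in KO, and 21.8% and 27.8% in WT. The share of guidance genes called was therefore near the background in both genotypes, and the count itself is not a result about the family. The median log2 fold change of members was −0.14 in KO and −0.02 in WT, beside −0.11 for all genes in each genotype. Call by call the genotypes gave 13 members higher in both, 14 lower in both, none in opposite directions, 2 called in KO alone and 4 in WT alone. Over all 17311 genes, 3154 were higher in both, 3853 lower in both and 2 in opposite directions. Another 1179 were called in KO alone and 1576 in WT alone, so agreement between the genotypes is not particular to the members. The tests of genotype difference are given further on.

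Among receptors, 8 were higher in IP in both genotypes: the plexins Plxna2 and Plxnd1, the Slit receptors Robo1 and Robo2, the netrin receptor Dcc, and the Eph receptors Epha4, Epha6 and Epha7. Among ligands, 5 were: Slit3, the secreted semaphorins Sema3a, Sema3e and Sema3f, and the ephrin Efnb2. In each of these 13 members, IP exceeded the same animal's input in all 11 animals. The 13 were picked as higher in these same libraries, so this is not separate support, and the share among all genes was not counted. With every IP library above every input library there were 8 members, 12.9% of those tested, where all genes gave 8.84%.

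Slit3, the ligand for Robo receptors, showed the largest ratio. It had 40.6, 44.96, 40.7, 54.4 and 48.9 CPM in KO IP, against 17.3, 24.9, 20.5, 18.0 and 17.8 CPM in KO input of the same animals. WT IP ran from 41.0 through a median of 55.3 to 69.0 CPM, against 20.5, 25.4 and 31.8 CPM in WT input. Both IP groups lay wholly above both input groups. The log2 fold change was 1.22 ± 0.15 in KO (adjusted p = 1.05e-07) and 1.14 ± 0.13 in WT (adjusted p = 5.26e-08), by edgeR.

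Robo2, the Slit receptor with the higher level per kb of the Robo genes, moved the same way. Its IP levels were 145, 150.5, 147, 160.0 and 147 CPM in KO and 137 to 184 CPM, median 159, in WT. Its input levels were 69.7, 80.3, 79.1, 101 and 84.8 CPM in KO and 86.0 to 99.2 CPM, median 90.2, in WT. No input library reached an IP library, and the log2 fold changes were 0.85 ± 0.09 in KO (adjusted p = 7.69e-09) and 0.82 ± 0.08 in WT (adjusted p = 2.72e-09). Robo1 was higher by 0.73 ± 0.12 in KO and 0.78 ± 0.11 in WT on the log2 scale. Ligand and receptors of the Slit pathway thus stood higher in the same pulldown, with Slit1 and Slit2 not called in either genotype and Robo3 at no more than 40 reads in any library.

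Plxna2, a plexin that binds class 6 semaphorins and also serves class 3 complexes, had 138, 138, 150.5, 166 and 139 CPM in KO IP, against 79.6, 91.8, 84.8, 74.3 and 81.6 CPM in KO input. In WT IP its lowest, median and highest values were 147, 171 and 240.1 CPM, against 86.6, 97.9 and 127 CPM in WT input. Here too the assays did not overlap, and the log2 fold changes were 0.83 ± 0.11 in KO (adjusted p = 4.95e-07) and 0.82 ± 0.10 in WT (adjusted p = 1.12e-07). Plxnd1, the receptor that binds Sema3e without a neuropilin, was higher by 0.67 ± 0.12 in KO and 0.72 ± 0.11 in WT on the log2 scale, and Sema3e itself by 0.56 ± 0.11 and 0.45 ± 0.10.

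Epha6, an ephrin-A receptor, had 40.1, 39.0, 37.6, 51.0 and 38.6 CPM in KO IP, against 29.4, 27.3, 29.1, 26.6 and 37.0 CPM in KO input. Its WT IP levels were 38.5 to 59.5 CPM with a median of 48.1, against 23.3 to 34.9 CPM with a median of 27.4 in WT input. The IP libraries lay above the input libraries in both genotypes, with the smaller gap in KO. Log2 fold changes were 0.46 ± 0.13 in KO (adjusted p = 0.00334) and 0.79 ± 0.12 in WT (adjusted p = 1.94e-06).

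Epha4, the most abundant member per kb, was higher in IP by 0.62 ± 0.08 in KO and 0.59 ± 0.07 in WT on the log2 scale. Efnb2, one of its ligands, was higher by 0.68 ± 0.09 and 0.56 ± 0.08, and Epha7 by 0.52 ± 0.11 and 0.46 ± 0.10, KO before WT. Dcc was higher by 0.41 ± 0.10 in KO and 0.69 ± 0.09 in WT.

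Sema3f, a secreted repellent that acts through Nrp2, was the least abundant of the 5 members with the largest ratios. It had 4.76, 4.58, 2.71, 4.78 and 4.74 CPM in KO IP, against 3.17, 2.01, 0.911, 2.59 and 3.38 CPM in KO input. WT IP spanned 4.71 to 9.13 CPM around a median of 6.38, against 2.33 to 4.37 CPM around 3.82 in WT input. Animal 9 was lowest in both of its libraries, and its IP value lay below some KO inputs. The log2 fold change was 0.83 ± 0.28 in KO (adjusted p = 0.0167) and 0.87 ± 0.26 in WT (adjusted p = 0.00610). Without animal 3 the KO difference was no longer called, nor without the 4 animals high in cortical markers (0.64, adjusted p = 0.0604). Sema3a, which acts through Nrp1, was higher by 0.55 ± 0.20 in KO (adjusted p = 0.0247) and 0.46 ± 0.18 in WT (adjusted p = 0.0378), and lost the call in KO without animal 2 or 3, and in WT without animal 1, 4, 13, 14 or 20. The WT call of Sema3a was also lost with RLE scaling (adjusted p = 0.0584), with no filter on low counts (0.0615) and with a filter at 1 CPM (0.0533), all by edgeR.

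**Figure D2:**
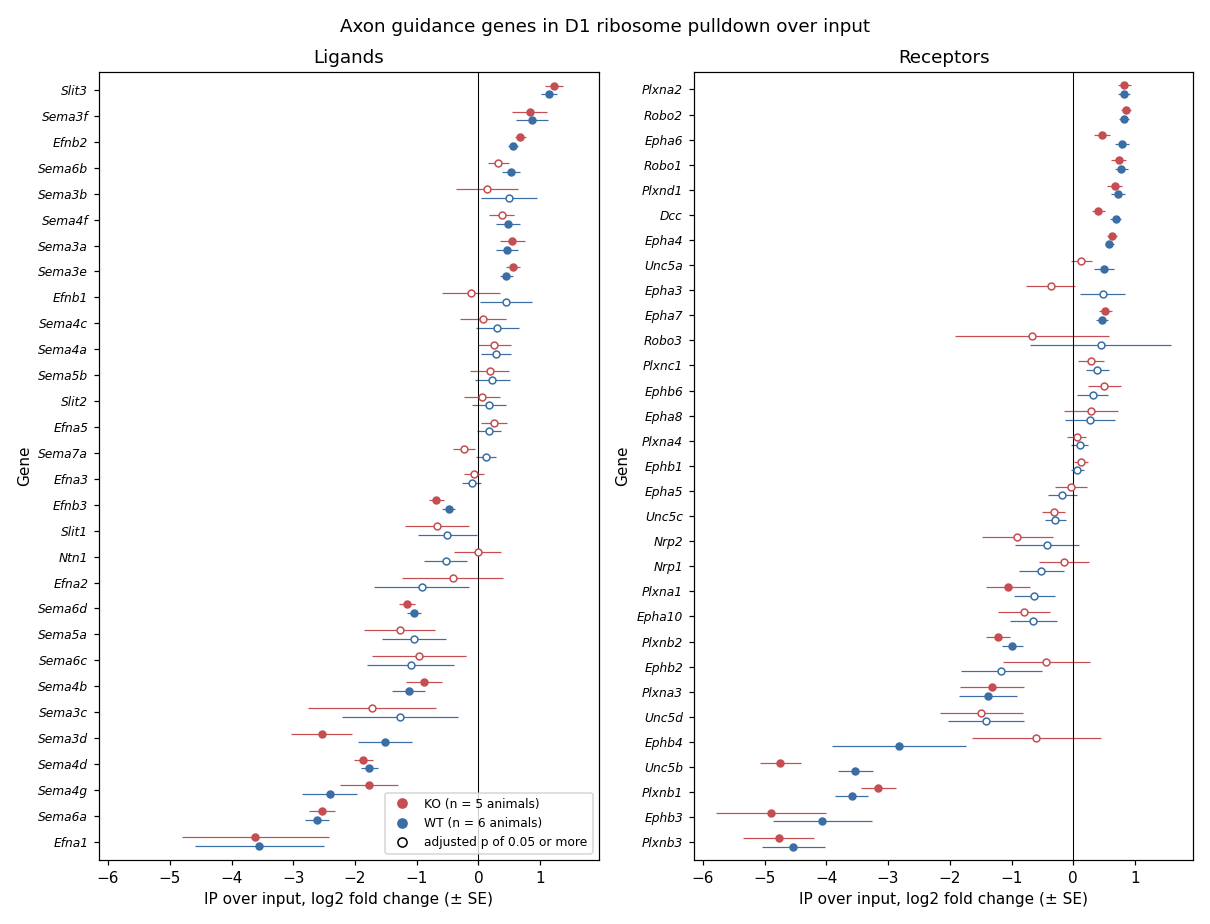
Log2 fold change of IP over input (± SE) for the ligands and receptors tested, with KO (n = 5 animals) and WT (n = 6 animals) drawn for each gene and open symbols where the adjusted p was 0.05 or more. Slit3 stands at the high end (1.22 in KO, 1.14 in WT), and Plxnb3, Ephb3, Unc5b and Plxnb1 stand below −3 in both genotypes. So does Efna1 (−3.62 in KO, −3.55 in WT), from no more than 2 reads in any IP library.

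At the low end stood all 3 class B plexins, Plxnb1, Plxnb2 and Plxnb3, with Plxna3, the Eph receptor Ephb3 and the netrin receptor Unc5b. Of the ligands, Efna1, Efnb3, Sema3d, Sema4b, Sema4d, Sema4g, Sema6a and Sema6d were lower in both genotypes. Of these 14 members, 12 were below their own input in all 11 animals, which is not separate support, since the same libraries picked them. With every IP library below every input library there were 10 members, 16.1% of those tested where all genes gave 12.2%.

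Plxnb3, a class B plexin known for its expression in oligodendrocytes, had 0.329, 0.385, 0.220, 0.264 and 0.431 CPM in KO IP, against 12.1, 6.83, 7.84, 6.17 and 11.01 CPM in KO input. WT IP ran from 0 to 1.11 CPM with a median of 0.337, against 7.14 to 15.3 CPM with a median of 10.3 in WT input. The gap was complete, though the IP values rest on 106 reads at most. The log2 fold change was −4.77 ± 0.58 in KO (adjusted p = 2.79e-07) and −4.53 ± 0.51 in WT (adjusted p = 6.89e-08).

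Plxnb1, the receptor for Sema4d, had 0.675, 1.46, 2.05, 1.55 and 2.22 CPM in KO IP, against 13.1, 15.8, 13.4, 12.8 and 14.4 CPM in KO input. Its WT IP values were 0.746 to 2.23 CPM, median 0.944, against 10.9 to 16.7 CPM, median 14.7, in WT input. Every IP library was below every input library, with log2 fold changes of −3.16 ± 0.28 in KO (adjusted p = 7.16e-10) and −3.59 ± 0.27 in WT (adjusted p = 1.37e-11). Sema4d was lower as well, by −1.86 ± 0.16 in KO and −1.77 ± 0.14 in WT, and Plxnb2 by −1.22 ± 0.19 and −0.99 ± 0.17.

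Unc5b, a netrin receptor known in blood vessels, had 0.242, 0.257, 0.878, 0.645 and 0.554 CPM in KO IP, against 11.3, 17.5, 12.8, 10.99 and 15.3 CPM in KO input. In WT IP it spanned 0.526 to 2.06 CPM around a median of 1.04, against 11.9 to 15.1 CPM around 12.97 in WT input. Its log2 fold change was −4.74 ± 0.34 in KO (adjusted p = 7.38e-12) and −3.53 ± 0.28 in WT (adjusted p = 6.32e-11). The netrin receptors therefore stood on both sides, with Dcc higher in IP and Unc5b lower, and with no overlap of assays for Unc5b.

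Ephb3, an ephrin-B receptor, had 0.0866, 0.171, 0.732, 0.0293 and 0 CPM in KO IP, against 3.31, 7.24, 8.55, 4.23 and 7.49 CPM in KO input. WT IP held 0 to 0.801 CPM with a median of 0.0594, against 1.58 to 5.49 CPM with a median of 3.42 in WT input. No IP library had more than 27 reads. The log2 fold change was −4.90 ± 0.89 in KO (adjusted p = 7.50e-05) and −4.06 ± 0.79 in WT (adjusted p = 0.000165).

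Sema6a, a transmembrane ligand of Plxna2 and Plxna4, had 2.79, 4.03, 3.77, 3.11 and 3.38 CPM in KO IP, against 20.9, 17.9, 21.5, 16.2 and 22.3 CPM in KO input. WT IP lay at 1.99 to 6.15 CPM, median 3.72, against 18.3 to 28.0 CPM, median 21.6, in WT input. The ligand was thus lower in the pulldown in which its receptor Plxna2 was higher, by −2.54 ± 0.21 in KO (adjusted p = 1.28e-10) and −2.62 ± 0.19 in WT (adjusted p = 1.04e-11) on the log2 scale. Sema6d followed at −1.16 ± 0.13 in KO and −1.04 ± 0.12 in WT. Sema4g stood at −1.77 ± 0.47 and −2.41 ± 0.44, and Sema3d at −2.54 ± 0.49 and −1.51 ± 0.43, KO before WT. Efnb3 was lower by a smaller ratio, −0.68 ± 0.12 in KO and −0.48 ± 0.11 in WT, and by level per kb it had rank 4 among members in WT IP and rank 2 in WT input. Efna1 was called lower from no more than 2 reads in any IP library, and lost the call in KO without animal 11. Without animal 4, 12 or 14, or with a filter at 1 CPM, Efna1 had too few reads to be tested. Plxna3 lost its call in KO without animal 2, 3, 10 or 11 and in WT without animal 12 or 14, and Sema4b lost it in KO without animal 3 or 9 (−0.32 without all 4 animals high in cortical markers).

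Most markers of other cells were also lower in IP. All 8 oligodendrocyte markers were lower in IP in both genotypes, at a summed 168 to 237 CPM in KO IP and 144 to 217 CPM in WT IP, against 2935 to 3675 CPM in KO input and 2507 to 3398 CPM in WT input. The 7 microglial markers summed to 1.30 to 4.58 CPM in KO IP and 2.47 to 4.24 CPM in WT IP, against 94.8 to 146 CPM in KO input and 79.4 to 135 CPM in WT input. Endothelial markers, 6 in number, summed to 1.04 to 4.03 CPM in KO IP and 1.10 to 2.63 CPM in WT IP, against 6.93 to 22.4 and 8.28 to 14.4 CPM in the inputs, KO before WT. The 5 D2 neuron markers fell to 46.3 to 75.5 CPM in KO IP and 45.5 to 78.4 CPM in WT IP, against 494 to 888 CPM in KO input and 772 to 1002 CPM in WT input. Of 10 interneuron markers, 7 were lower in KO and 8 in WT, with sums of 16.8 to 95.5 CPM in KO IP and 16.4 to 90.9 CPM in WT IP, against 213 to 355 CPM in KO input and 203 to 319 CPM in WT input. All 5 markers of oligodendrocyte precursors were lower, at 0.381 to 3.31 CPM in KO IP and 1.40 to 3.53 CPM in WT IP, against 38.2 to 47.9 CPM in KO input and 38.7 to 55.1 CPM in WT input. Astrocyte markers were divided, 7 of 8 lower and Slc4a4 higher in both genotypes (0.42 in KO and 0.44 in WT), so that their sum was 279 to 353 CPM in KO IP and 300.3 to 365 CPM in WT IP, against 588 to 657 CPM in KO input and 518 to 686 CPM in WT input. None of the 10 cortical markers was called in either genotype, with sums of 6.23 to 254.7 CPM in KO IP and 5.30 to 268 CPM in WT IP, against 15.1 to 462 CPM in KO input and 13.99 to 296 CPM in WT input. None of the markers lacked reads throughout a group. Their part in the ratios of guidance genes was not tested, and in input, fewer cells of a type and less RNA per cell cannot be told apart.

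**Figure D3:**
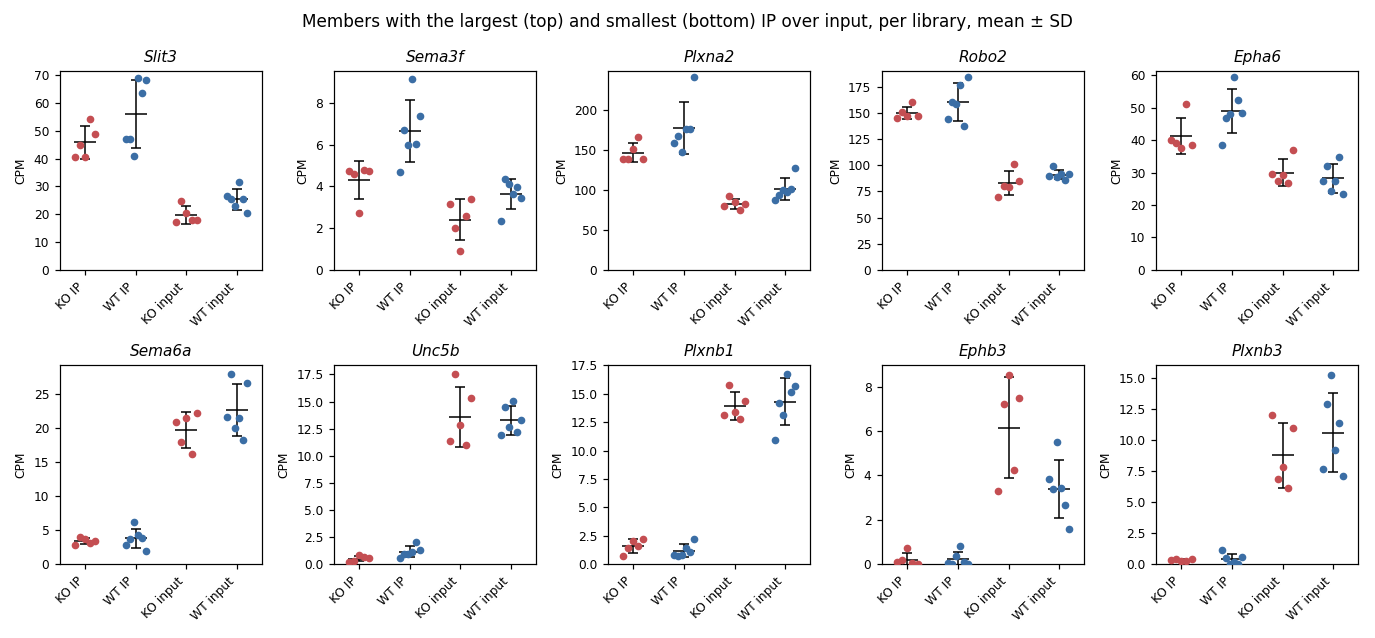
CPM in every library of the 5 members with the largest and the 5 with the smallest IP over input, as points per library with mean ± SD for KO IP, WT IP, KO input and WT input. Slit3, Plxna2 and Robo2 show both IP groups above both input groups, and the lower row shows IP values near 0, with Sema6a at 1.99 to 6.15 CPM.

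Promoters of a gene from each end are shown because their mRNAs had the largest and the smallest ratio of pulldown to input in WT among the members tested. In KO, Slit3 again had the largest ratio and Plxnb3 the next to smallest, after Ephb3. They are the 250 bases before the transcription start in RefSeq (GRCm38.p6), in which 56 of the 69 members matched by symbol. Capitals mark matches, on either strand, to CCCNNGGG, the palindrome bound by EBF factors (Ebf1 is a transcription factor of D1 neurons), and to ACAAAG, the core bound by SOX factors (Sox10 acts in oligodendrocytes). The Slit3 window is chr11:35121206-35121455 and the Plxnb3 window is chrX:73756853-73757102, both on the plus strand. GENCODE vM21, used for exon lengths, starts the Slit3 gene at 35121224 and the Plxnb3 gene at 73757090, inside these windows. By that annotation most of the Slit3 window, its marked match included, lies past the start of the gene.
Slit3: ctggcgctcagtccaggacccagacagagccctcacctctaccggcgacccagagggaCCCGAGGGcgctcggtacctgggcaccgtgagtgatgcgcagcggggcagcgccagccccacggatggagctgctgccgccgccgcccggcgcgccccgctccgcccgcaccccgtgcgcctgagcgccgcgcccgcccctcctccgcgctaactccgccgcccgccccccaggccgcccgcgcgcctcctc
Plxnb3: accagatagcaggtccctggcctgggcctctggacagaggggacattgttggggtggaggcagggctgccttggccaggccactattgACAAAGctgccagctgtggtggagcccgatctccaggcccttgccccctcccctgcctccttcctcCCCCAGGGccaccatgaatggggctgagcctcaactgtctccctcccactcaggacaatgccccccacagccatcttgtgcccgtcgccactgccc
Slit3 held 1 match to the EBF letters and 0 to the SOX letters, and Plxnb3 held 1 of each. Among members higher in IP in both genotypes, 21.4% of 14 promoters (11 genes) held CCCNNGGG, as did 27.8% of 18 promoters (12 genes) of those lower in both and 13.7% of all 32851 promoters in the table, counted in windows that run on to 50 bases past the start. ACAAAG was present in 7.14%, 27.8% and 18.7% of the same sets. These are matches of letters in few promoters and not binding sites.

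The remaining tested members, 29 in number, passed the threshold in neither genotype. They include Sema7a (−0.23 ± 0.18 in KO and 0.13 ± 0.16 in WT), Ephb1 (0.13 ± 0.11 and 0.07 ± 0.10), Plxna4 (0.06 ± 0.15 and 0.11 ± 0.14), and the lipid-anchored ephrins Efna3 (−0.07 ± 0.17 and −0.11 ± 0.15) and Efna5 (0.26 ± 0.21 and 0.17 ± 0.19), all log2 IP over input, KO before WT. Members called in WT alone were Sema4f (0.37 ± 0.21 in KO and 0.48 ± 0.19 in WT), Sema6b (0.32 ± 0.17 and 0.53 ± 0.15), Unc5a (0.13 ± 0.17 and 0.50 ± 0.16) and Ephb4 (−0.60 ± 1.05 and −2.82 ± 1.08). Ephb4 had at most 43 reads in an IP library and lost its WT call without animal 4, 12 or 14, as did Sema4f without animal 4, 12, 13 or 14 or with RLE scaling (adjusted p = 0.0544 by edgeR) and Unc5a without animal 14. Those called in KO alone were Plxna1, at −1.06 ± 0.36 in KO and −0.63 ± 0.33 in WT, and the antisense RNA Plxna4os1. Plxna1 lost this call without animal 9, and Plxna4os1 without animal 2, 9, 10 or 11. With the animal as a replicate block, which pairs each IP with its own input, 35 members were called in KO and 39 in WT. The block also raised the number of all genes called, from 8188 to 8906 in KO and from 8585 to 9319 in WT. Members added in both genotypes were Ephb6, higher in IP, and Sema3c, Sema5a, Unc5c and Unc5d, lower in IP. The block also added Nrp2 in KO, and in WT Plxna1, Plxna4os1 and Plxnc1, so that with it neither Plxna1 nor Plxna4os1 was called in KO alone. Of the Plxna1 exons, 10.7% overlap another annotated gene, and libraries that do not keep the strand cannot separate an antisense RNA from the gene across it. No difference between the genotypes in these ratios passed the interaction test given below.

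Animals 1, 3, 9 and 12, high in cortical markers, were also the 4 highest for several members. In IP they held the 4 highest values of 11 for Nrp1, Sema3c and Sema5a (3 of 62 members, where 1.88% of all genes did so), and in input for Epha5, Sema5a and Unc5d (3 of 62, beside 1.81%). Sema5a, a transmembrane semaphorin, had 15.8 and 24.9 CPM in the IP of KO animals 3 and 9 and 16.03 and 32.0 CPM in that of WT animals 1 and 12. In the other 7 animals its IP level was 3.94 to 8.51 CPM. Input levels of Sema5a were 30.5 and 43.7 CPM in KO animals 3 and 9 and 35.2 and 41.9 CPM in WT animals 1 and 12, against 14.3 to 24.9 CPM in the other 7. Unc5d, a netrin receptor, had 14.4 and 23.6 CPM in KO input of animals 3 and 9 and 9.34 and 19.1 CPM in WT input of animals 1 and 12. Without the 4 animals, a choice made after seeing the data, Sema3c, Sema5a and Unc5d were called lower in IP in both genotypes, and the number called was 28 in KO and 31 in WT. Of all genes, 7298 were then called in KO and 7941 in WT, beside 8188 and 8585 with every animal kept. The part of cortical tissue in these values was not tested.

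The series asks how translation in D1 neurons differs in Fmr1 mutants, and for this KO was set against WT within each assay. In IP none of the 56 members tested passed the adjusted threshold in edgeR, beside 0.0553% of 14456 genes. DESeq2 called none of the members either, where it called 63 of all genes. The other 13 members, with no more than 211 reads in any IP library, were not tested in IP. They were the 7 not tested over all libraries, with Efna1, Ephb3, Ephb4, Plxna4os1, Robo3 and Sema3c. At an unadjusted p under 0.05 there were 11 members (19.6%), 10 lower and 1 higher in KO, where all genes gave 7.62% (4.51% lower, 3.11% higher). Without animal 9, Dcc, Epha4, Robo1, Efnb2, Epha6, Slit3 and Efna2 of these 11 rose above 0.05, from 0.0504 for Dcc to 0.896 for Efna2 (unadjusted, edgeR). Plxna2, Sema3f, Unc5a and Unc5b stayed under it. Of the 11, only Unc5a, Sema3f and Plxna2 stayed under 0.05 whichever animal was left out. Of the members, 40 had a negative log2 fold change, 71.4% beside 49.3% of all genes. The median log2 fold change was −0.17, beside 0.00 for all genes, and lay between −0.22 and −0.10 when each animal was left out. Several lists of cell type markers also leaned by genotype, with none called. In IP, 8 of 9 interneuron markers tested (median log2 fold change 0.61), 8 of 8 cortical markers (0.45) and 7 of 8 oligodendrocyte markers (0.22) were positive. So were 3 of 3 endothelial markers tested (0.70) and 4 of 5 D2 neuron markers (0.13). The D1 neuron markers were divided in IP, 3 positive and 5 negative (−0.04). In input all 8 D1 neuron markers (−0.22) and all 5 D2 neuron markers (−0.07) were negative. Positive there were 7 of 7 cortical markers (0.65), all 8 oligodendrocyte markers (0.13) and 7 of 9 interneuron markers (0.12). Astrocyte and microglial markers were divided in both assays. Their part in the members' values was not tested. The smallest adjusted p of a member was 0.286.

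Unc5a, a netrin receptor that mediates repulsion, had that value. It had 13.4, 18.5, 15.4, 22.4 and 15.02 CPM in KO IP, against 21.3 to 28.8 CPM with a median of 23.2 in WT IP. The groups met at a single animal, since KO animal 10 lay above the lowest WT animal. The log2 fold change was −0.52 ± 0.14 (unadjusted p = 0.00172 by edgeR). In the authors' deposited table, which gives WT over KO, Unc5a had a log2 value of 0.53 and an adjusted p of 0.0402, and it was the 1 member of the 41 with an adjusted p there to be under 0.05. The share of all genes under 0.05 in that table is not given here, so this count is not a result about the members. In the authors' deposited table for input, none of the 62 members with an adjusted p was under 0.05. DESeq2 run here on the deposited counts gave an adjusted p of 0.0662, so the call depends on the tool and its settings. In input, Unc5a had 11.2, 19.6, 20.7, 11.1 and 14.5 CPM in KO, against 13.6 to 21.3 CPM with a median of 16.6 in WT, overlapping in range (−0.17 ± 0.18).

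Sema3f, whose values are given above, was second by p in IP, at −0.62 ± 0.22 (unadjusted p = 0.0122, adjusted p = 0.521, edgeR), and its input difference was −0.60 ± 0.31. Dcc, the attractive netrin receptor, came next. Dcc had 102, 101, 88.8, 114 and 99.8 CPM in KO IP, against 109 to 125 CPM with a median of 118 in WT IP, and KO animal 10 alone reached the WT range. Its log2 fold change was −0.20 ± 0.07 in IP (adjusted p = 0.544) and 0.07 ± 0.11 in input. The other members at an unadjusted p under 0.05 in IP were Plxna2 (−0.27 ± 0.10), Robo1 (−0.26 ± 0.10), Epha4 (−0.19 ± 0.08), Slit3 (−0.28 ± 0.13), Epha6 (−0.24 ± 0.11), Efnb2 (−0.17 ± 0.08) and Unc5b (−1.15 ± 0.52), with Efna2, a lipid-anchored ephrin, alone positive (1.21 ± 0.54). The Efna2 value rests on KO animal 9, at 12.8 CPM in IP, whereas the other 4 KO animals had 1.20 to 1.97 CPM and WT IP had 1.13 to 2.01 CPM. Without animal 9 it was −0.05 ± 0.34.

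In input none of 61 members tested was called by edgeR, beside 0.0183% of 16429 genes. DESeq2 again called none of the members, where it called 27 of all genes. The other 8 members were not tested in input. At an unadjusted p under 0.05 there were 6 members, 9.84% beside 6.84% of all genes, with 5 lower and 1 higher in KO (3.68% and 3.16% of all genes). A negative log2 fold change was found in 36 members, 59% beside 49.5% of all genes, with a median of −0.04. Epha4 had the smallest p. It had 195, 169, 166, 168 and 192 CPM in KO input, against 195 to 225 CPM with a median of 210.2 in WT input. The highest KO animal and the lowest WT animal were level at 195.1 CPM. The log2 fold change of Epha4 was −0.24 ± 0.07 (unadjusted p = 0.00483, adjusted p = 0.512, edgeR). In IP, Epha4 had 288, 269, 261, 281 and 272 CPM in KO, against 257 to 363 CPM with a median of 314 in WT. Plxna2, whose values appear above, was at −0.29 ± 0.10 in input. Efnb2 had 56.8, 55.9, 51.2, 62.2 and 60.2 CPM in KO input, against 57.2 to 84.2 CPM with a median of 70.0 in WT input, with overlap, at −0.29 ± 0.10. Slit3 (−0.37 ± 0.13) and Epha7 (−0.24 ± 0.10) were also negative, and Ephb3 (0.85 ± 0.30) was positive. Epha7 rose above 0.05 without animal 2, 3, 11, 12 or 20 (0.0516 to 0.0895, unadjusted, edgeR). Epha4, Plxna2, Efnb2, Slit3 and Ephb3 stayed under 0.05 whichever animal was left out. None of these passed adjustment, whose smallest value among members was 0.512.

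Among abundant members negative values were also in the majority. Of the 19 members with a mean of at least 20 CPM, 15 had a negative log2 fold change in IP (78.9%, beside 50.9% of 6211 genes at that level) and 14 in input (73.7%, beside 55.2%). This level was chosen after values had been seen, and genes measured in the same libraries are not independent. The share of mitochondrial ribosomal RNA in input was 30.6% to 53.2% in KO and 25.1% to 37.1% in WT. Its part in the input values was not tested. With the mitochondrially encoded genes removed, the members' median was −0.17 in IP and −0.04 in input.

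**Figure D4:**
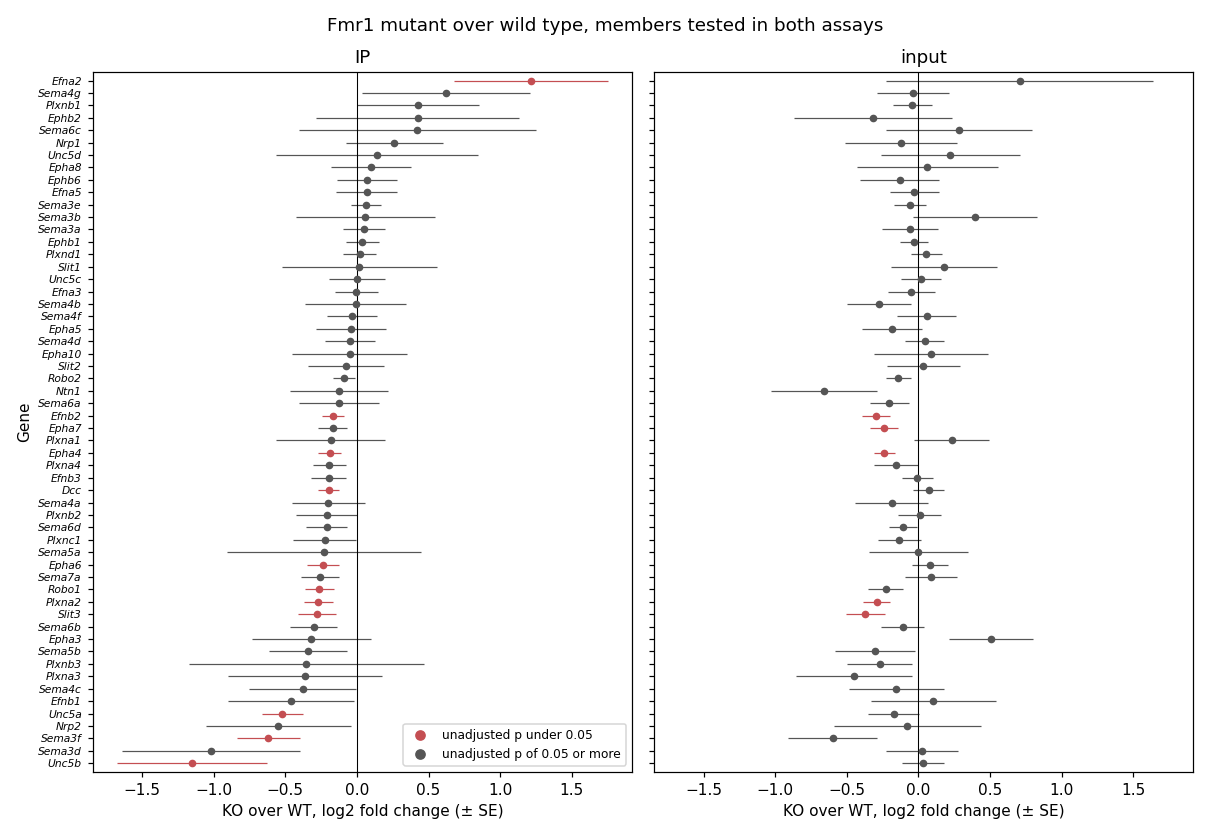
Log2 fold change of KO over WT (± SE, edgeR) in IP and in input for the 56 members tested in both assays, ordered by the IP value, with an unadjusted p under 0.05 in red. In IP, 40 of the 56 values lie below 0, and none passed the adjusted threshold in either assay.

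**Figure D5:**
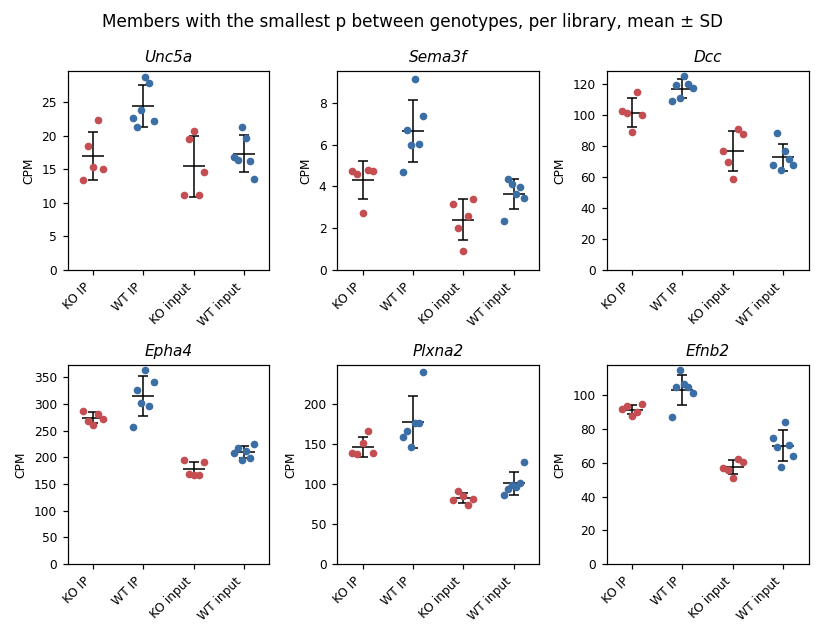
CPM in every library for the 3 members with the smallest p between genotypes in IP (Unc5a, Sema3f, Dcc) and in input (Epha4, Plxna2, Efnb2), as points per library with mean ± SD. Unc5a in KO IP overlaps WT IP through 1 animal at 22.4 CPM, and the KO and WT inputs of Unc5a share a range.

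Whether IP over input differed by genotype was asked by the interaction term over all 22 libraries. None of 62 members was called by edgeR, where all 17311 genes gave 0%. DESeq2 called none of the members, where it called 5 of all genes. A single member had an unadjusted p under 0.05, beside 4.1% of all genes. It was Unc5b, at −1.21 ± 0.41 (unadjusted p = 0.00636, adjusted p = 1.0), with 6 to 24 reads in KO IP libraries and 10 to 71 in WT IP libraries. Dcc (−0.28 ± 0.14, unadjusted p = 0.0514) and Epha6 (−0.33 ± 0.17, unadjusted p = 0.0638) came next by p in edgeR. The log2 ratio of IP over input was thus smaller in KO for these 3 by values that did not pass the test, which does not show that the genotypes are alike.

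Around the members, other guidance receptors and ligands (24 genes, such as L1cam, Lingo1 and Rgma) and intracellular effectors of guidance receptors (66 genes, such as Kalrn, Trio and Srgap1) were counted the same way. Of the 24, 7 were higher and 4 lower in IP in KO (29.2% and 16.7%, beside 20.9% and 26.4% of all genes), and 11 higher and 4 lower in WT (45.8% and 16.7%, beside 21.8% and 27.8%). Of the 66, 27 were higher and 16 lower in KO (40.9% and 24.2%), and 28 higher and 15 lower in WT (42.4% and 22.7%). The median log2 fold change of the 24 was 0.16 in KO and 0.27 in WT, and that of the 66 was 0.11 and 0.10, beside −0.11 for all genes in each genotype. The signalling proteins Kalrn (1.94 ± 0.15 in KO and 2.10 ± 0.14 in WT) and Trio (1.08 ± 0.09 and 1.22 ± 0.08), which act below Dcc and other receptors, had the largest log2 ratios of the effectors, followed by the Robo effector Srgap1 (0.90 ± 0.16 and 0.88 ± 0.15). Kalrn stood at 745 to 1155 CPM in KO IP and 844 to 1166 CPM in WT IP, against 200.5 to 347 CPM in KO input and 195 to 314 CPM in WT input, without overlap. Lingo1, a coreceptor that limits axon growth, was higher in WT (0.86) and not called in KO (0.58, adjusted p = 0.0691), while the adhesion molecule L1cam was at 0.89 in KO and 0.84 in WT. The neogenin ligand Rgma was lower, with 1.92 to 4.17 CPM in KO IP and 1.59 to 3.80 CPM in WT IP, against 20.4 to 30.6 CPM in KO input and 19.0 to 28.1 CPM in WT input. Met, Fes and Mical1 were lowest in WT but had a median of 0 CPM in WT IP. None of these 90 genes was called between genotypes, and the smallest adjusted p was 0.156, for Arhgap35 in IP (−0.28 ± 0.06).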

How the data were processed

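Unnormalized counts for each gene symbol were deposited by the authors for 22 libraries; the submitters' processing notes name STAR, featureCounts and mm10, without versions. Paired-end libraries did not keep the strand, and pulldowns and sequencing formed 1 batch, per the labels' protocols. The authors also deposited tables of wild type over mutant, with log2 fold changes and with p-values before and after adjustment, per the file headers (DESeq2, per the submitters' processing notes). Values from them are used only where the deposited table is named.

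From the counts, KO was compared with WT within each assay, and IP with input and the interaction over all libraries, with edgeR 4.0.16 in R 4.3.3 (TMM scaling, filterByExpr, robust quasi-likelihood test, Benjamini-Hochberg adjustment over all genes tested, threshold 0.05), with DESeq2 1.42.0 as an alternative. Every adjusted p is from edgeR unless another tool is named. CPM values share 1 TMM scale over the 22 libraries. Exon lengths, the merged length of all annotated exons of a gene, came from GENCODE vM21 (GRCm38/mm10), and promoters came from RefSeq. Animal numbers mark IP and input of the same lysate. Deviations from the group means in same-numbered libraries had correlations of 0.190 to 0.371 over 12855 genes. Correlations between different animals were not computed, so these values alone do not show that libraries of an animal go together. In the genotype comparisons, p-values measure the spread between animals. The fits of IP against input and of the interaction treated the 22 libraries as independent and left out this pairing, except with the replicate block. Depth sets the precision of low genes.

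The members, gene lists and tests were chosen with earlier results of these data known. Per-library values were given for the 3 members with the smallest p in each genotype comparison and the interaction, and for the 5 largest and 5 smallest IP over input ratios in WT among members called in both genotypes with a mean of at least 1 CPM. Alternatives were another scaling, other filters, DESeq2, removal of mitochondrially encoded genes, a replicate block, and leaving out each animal.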

Additional observations from a re-analysis of the deposited data

Results flagged for a closer look

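In 6 of 56 groups of the 14 members given library by library, the highest or lowest animal stood far from the others of its group by Dixon's test, which chance does in about 1 group in 20. Sema3f was 2.71 CPM in KO IP of animal 9, with the other 4 KO IP libraries between 4.58 and 4.78 CPM, and the same animal had the lowest KO input. Plxna2 was highest in WT animal 20 in both assays, at 240.1 CPM in IP and 127 CPM in input. Epha6 was 51.0 CPM in KO IP of animal 10 and 37.0 CPM in KO input of animal 11, so that different animals stood apart in the 2 assays. Ephb3 was 0.732 CPM in KO IP of animal 9, a value made of 20 reads.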

How the results depend on the processing

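The number of members called kept within 1.5 times its reported value under every alternative run. IP against input gave 27 to 35 members in KO and 28 to 39 in WT, the highest from the fit with the replicate block, in which the animal number pairs IP with input. That fit called 35 members in KO (14 higher, 21 lower) and 39 in WT (18 higher, 21 lower), holding all those reported, and added Ephb6, Sema3c, Sema5a, Unc5c and Unc5d in both genotypes. Over all genes it called 8906 in KO and 9319 in WT. It called 0 members in the interaction. Leaving out each animal gave 26 to 30 members in KO, 26 to 32 in WT, and 0 for both genotype comparisons and the interaction. Genotype calls of members stayed at 0 in every alternative. Of 1226 values of single members under alternatives, 1185 kept their direction and their side of the threshold, 41 kept the direction but lost the call, and 0 reversed. Members that an alternative left untested are not among these values. Such were Efna1 without animal 4, 12 or 14, and Efna1, Ephb4 and Plxna4os1 with a filter at 1 CPM. Members that lost a call somewhere were Efna1, Ephb4, Plxna1, Plxna3, Plxna4os1, Sema3a, Sema3f, Sema4b, Sema4f and Unc5a (WT without animal 14, adjusted p = 0.0503 by edgeR), and the cause was not tested. The members' median log2 fold change in WT, reported as −0.02, lay at −0.21 with no filter on low counts and 0.06 with a filter at 1 CPM, beside −0.32 and −0.04 for all genes. Few reads limit Ephb3, Plxnb3, Efna1 and Unc5b in IP.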
